A study of Mus musculus with 49 samples.

Results

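The quantities described here are loop_enr_EE and loop_enr_LL, which give for each cell 1 deposited log2 enrichment of contacts over a set of chromatin loops in early-replicating chromatin (EE) and 1 over a set in late-replicating chromatin (LL), and the difference EE minus LL. A value of 0 is read as no enrichment and a value of 1 as 2 times the reference, from the log2 scale alone, since the reference behind the enrichment is not given in the sources used here. The names EE and LL are read from the columns, the loops of each set are not listed in the files used here, and no loop position is therefore given. The members are the cells that passed the authors' quality control in the 2 tables with these columns: 1992 of 2924 listed diploid cells and 1247 of 1772 listed haploid cells, together 3239 of the 4098 passing and 5871 listed cells of the series. The other 859 passing cells, diploid cells grown with serum, were not analysed here.

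Contacts were measured by Hi-C in single fixed mouse embryonic stem (ES) cells, and the authors placed every cell in 1 of 5 groups along the cell cycle: the interphase groups G1, early-S and late-S/G2, and around division pre-M and post-M. Whether the loop columns entered that grouping or the authors' order of cells is not given in the sources used here. The diploid cells are an F1 hybrid of 129/SV-Jae and castaneus mice cultured without feeder cells in 2i, which keeps ES cells undifferentiated by means of inhibitors in place of serum. They came from 18 libraries, in which 401 cells have the condition 1CDU, 420 NoSort, 280 1CD_G1, 303 1CD_eS, 262 1CD_mS and 326 1CD_lS_G2. The last 4 are sort gates on DNA content (Hoechst) and Geminin, a protein that is degraded in G1. The haploid cells are the line H129-1 from 19 libraries, in which 395 cells have the condition 2i_all, 271 2i_G1 and 581 Serum_G1/S. Per the labels, cells from serum cultures grew on feeder cells, which were removed before the Oct-3/4-positive cells were sorted, so for the haploid line the medium, the feeder cells and the sort cannot be told apart. Each genotype is a single line, and haploid ES lines can become diploid in culture, which was not examined here. Whether each library is a culture of its own is not stated in the labels, and the p-values below therefore measure the spread between libraries, which may be technical. In the cell list none of the 50 sequencing lanes held more than 1 library.

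Most chromatin loops seen by Hi-C are held by cohesin, a ring complex that extrudes DNA until it meets the boundary protein CTCF. Early-replicating chromatin is mostly gene-rich and open, late-replicating chromatin mostly gene-poor and packed at the nuclear edge, and each is copied in its own part of S phase, when forks pass through the loops. Cohesin is loaded in G1, links the sister chromatids after replication and leaves chromosome arms in mitosis, when loops are lost.

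Mean LL enrichment exceeded mean EE enrichment in G1, early-S and late-S/G2 of both lines, by the least in diploid late-S/G2 cells. In what follows, a level is first averaged over the cells that a library has in a phase, where these number 10 or more, and then given as mean ± SD over libraries. In diploid G1 cells EE was 0.77 ± 0.11 and LL 0.99 ± 0.06 (10 libraries). In early-S cells EE was 0.66 ± 0.10 and LL 0.95 ± 0.13 (16 libraries). In late-S/G2 cells EE was 0.64 ± 0.06 and LL 0.73 ± 0.12 (10 libraries). LL therefore stood near 1 in G1 and early-S and lower in late-S/G2, while the EE means of the 3 phases lay within 0.64 to 0.77. The haploid values were higher throughout. In G1 EE was 0.99 ± 0.10 and LL 1.39 ± 0.13 (9 libraries), in early-S they were 1.03 ± 0.12 and 1.27 ± 0.19 (13 libraries), and in late-S/G2 0.94 ± 0.12 and 1.21 ± 0.21 (9 libraries).

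**Figure D1:**
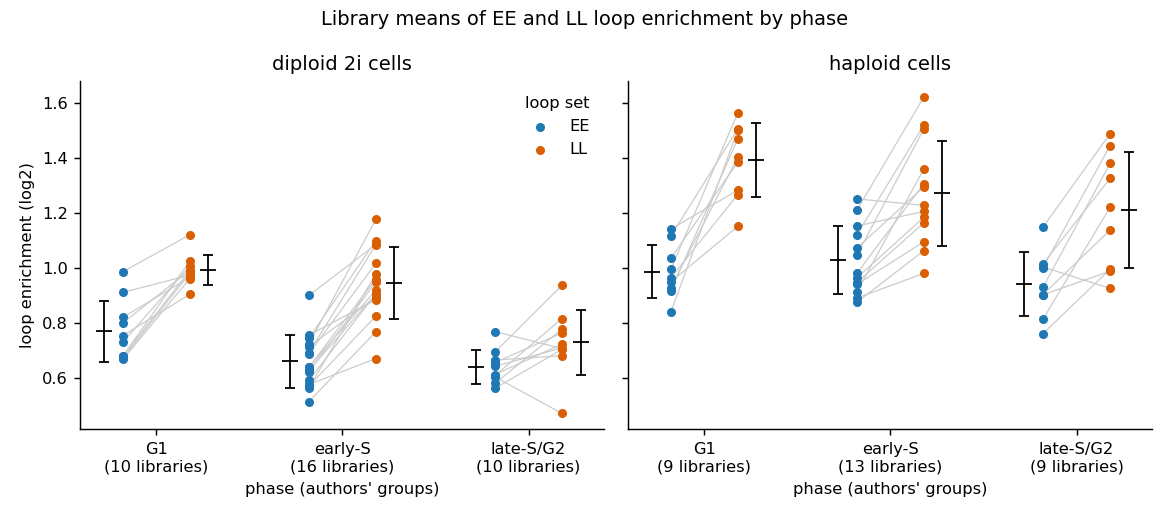
Loop enrichment (log2, vertical axis) by phase (horizontal axis) for EE (blue) and LL (orange), 1 point per library with at least 10 cells of the phase, grey lines joining the values of a library and bars giving mean ± SD over libraries. The lines run upwards from EE to LL in all 10 diploid libraries in G1, all 16 in early-S and 8 of 10 in late-S/G2.

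The difference EE minus LL was -0.22 ± 0.10 in diploid G1 cells, from -0.35 to -0.06 over libraries, and lay below 0 in 10 of 10 libraries (two-sided sign-flip permutation test over libraries, Benjamini-Hochberg adjusted over 6 tests, adjusted p = 0.0039). In diploid early-S cells it was -0.28 ± 0.10, from -0.45 to -0.09, below 0 in 16 of 16 libraries (same permutation test, adjusted p = 0.00012). In diploid late-S/G2 cells it was -0.09 ± 0.12, and its libraries spread from -0.24 to 0.13, with 8 of 10 below 0 (same permutation test, adjusted p = 0.049). It held in 2 of the 10 fits that left out 1 library, those without diploid 11 or diploid 28_29, the 2 libraries in which EE was the higher. The haploid differences were -0.40 ± 0.17 in G1 (9 of 9 libraries below 0, exact sign-flip, adjusted p = 0.0059), -0.24 ± 0.16 in early-S (12 of 13, permutation, adjusted p = 0.0013) and -0.27 ± 0.17 in late-S/G2 (8 of 9, exact, adjusted p = 0.0094). The exceptions were haploid 12 in early-S, at 0.02, and haploid 1 in late-S/G2, at 0.08.

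In single cells the order of the loop sets was mixed. EE was below LL in 1362 of 1992 diploid cells (68.4%) and in 798 of 1247 haploid cells (64.0%). By library and phase this share averaged 61.1% in diploid G1, 73.7% in early-S and 58.2% in late-S/G2, and 71.2%, 59.6% and 67.1% in the haploid phases. Within a phase and library the cells of the diploid line had mean SDs of 0.43, 0.35 and 0.28 for EE and 0.49, 0.43 and 0.44 for LL in the 3 phases, so the cells of 1 library spread several times wider than the library means. Single values ran from -1 to 2.10 for EE and to 2.85 for LL in diploid cells, and from -1 to 3.17 for both in haploid cells, where 26 cells shared that highest LL value. Haploid LL took only 233 distinct values over 1247 cells, against 821 over 1992 diploid cells, and EE took 467 and 1233. Below 0 lay 2.51% of diploid cells for EE and 3.26% for LL, and 2.89% and 3.53% of haploid cells.

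Part of these levels moved with depth, the number of contacts found in a cell. The median was 205511 contacts in diploid and 80858 in haploid cells, with library totals from 332107 to 50126513 contacts over 4 to 162 cells. When all cells of a table were ranked by contacts and split in quintiles, haploid LL was 1.75, 1.33, 1.18, 1.09 and 0.95 from the shallowest quintile (median 28060 contacts) to the deepest (median 220472). Haploid EE was 1.19, 0.99, 1.00, 0.89 and 0.86. The diploid quintiles gave 1.03, 0.91, 0.89, 0.83 and 0.76 for LL and 0.79, 0.66, 0.67, 0.59 and 0.61 for EE. The SD over cells also shrank with depth, from 0.75 to 0.49 for haploid LL and from 0.51 to 0.20 for diploid EE.

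**Figure D2:**
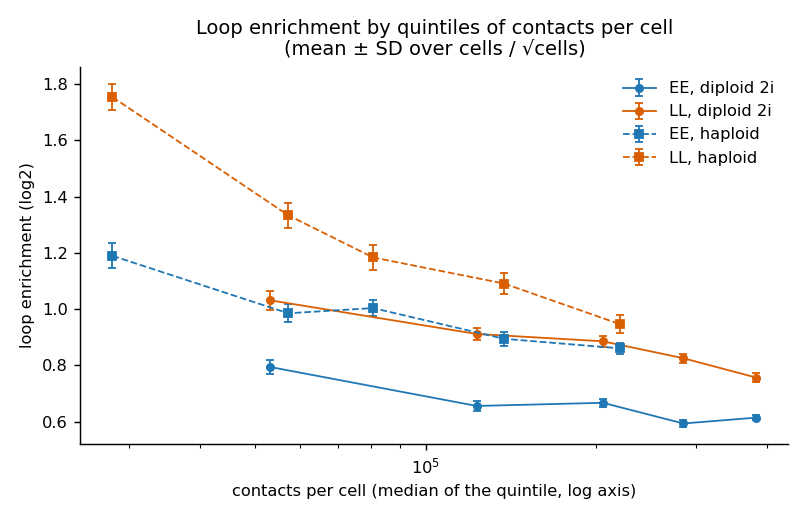
Loop enrichment (log2, vertical axis) against contacts per cell (log horizontal axis, median of each quintile of cells) for EE (blue) and LL (orange) in diploid 2i (solid lines, circles) and haploid cells (dashed lines, squares), as means over cells with bars of the SD divided by the square root of the number of cells. Haploid LL is the steepest curve, from 1.75 in the shallowest to 0.95 in the deepest quintile.

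Within libraries the same held, tested by splitting the cells of a phase at their median number of contacts (at least 5 cells on each side, sign-flip over libraries, adjusted over 18 tests). Haploid LL was lower in the deeper cells in G1, 1.15 against 1.64, in 9 of 9 libraries (exact, adjusted p = 0.023), in early-S, 1.14 against 1.40, in 11 of 13 (permutation, adjusted p = 0.023), and in late-S/G2, 1.04 against 1.38, in 8 of 9 (exact, adjusted p = 0.035). Haploid EE minus LL in G1 accordingly stood at -0.23 in the deeper and -0.57 in the shallower cells (9 of 9, exact, adjusted p = 0.023). In the diploid line LL in early-S was 0.89 in the deeper and 1.00 in the shallower cells (11 of 16 libraries, permutation, adjusted p = 0.0499). The other 13 tests, all 6 of EE among them, did not pass (exact or permutation, adjusted p from 0.070 to 0.84). Leaving out 1 library, both haploid G1 calls were lost without haploid 18, 19 or 20 (LL from -0.53 to -0.46 over all such fits), that in early-S without haploid 8, 18, 19 or 20 (from -0.29 to -0.22) and that in late-S/G2 in 7 of 9 fits, all but those without haploid 6 or 17 (from -0.38 to -0.27). The diploid call was lost in 10 of 16 fits, all but those without diploid 2_14, 13, 19, 23, 26 or 32_33 (from -0.13 to -0.09). Limited to cells with at least 100000 contacts, a limit set after seeing the data, the haploid EE minus LL was -0.26 ± 0.22 in G1, -0.14 ± 0.06 in early-S and -0.21 ± 0.16 in late-S/G2, over 4, 4 and 5 libraries. With so few libraries an exact test cannot pass. The diploid values in the same cells were -0.22 ± 0.12, -0.29 ± 0.11 and -0.10 ± 0.08. The haploid libraries left by this limit were haploid 17, 18, 19 and 20, all Serum_G1/S, with a 2i_all library added in late-S/G2.

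The largest differences between phases were those of diploid LL, which was lower in late-S/G2 than in G1 or early-S. In the 9 diploid libraries with at least 10 cells of both phases, LL was 0.96 ± 0.17 in early-S and 0.72 ± 0.12 in late-S/G2. The within-library difference was -0.23 ± 0.18, from -0.54 to 0.05, below 0 in 8 of 9 libraries. The 4 NoSort libraries gave -0.39 (diploid 28_29), -0.24 (diploid 30_31), -0.32 (diploid 32_33) and -0.27 (diploid 34_35). The 1CDU library diploid 11 gave -0.54, the 1CD_mS libraries diploid 23 and 24 gave 0.05 and -0.20, and the 1CD_lS_G2 libraries diploid 25 and 26 gave -0.06 and -0.14. The sign-flip test gave p = 0.0078 (exact) but did not pass after adjustment over the 18 tests of this kind (adjusted p = 0.094), so the difference is given as a value and not as a call. With a minimum of 5 cells it passed, at -0.24 ± 0.15 and below 0 in 13 of 14 libraries (permutation, adjusted p = 0.0045). With the authors' batch numbers as the unit, which split some libraries, it passed at -0.25 ± 0.16, below 0 in 12 of 13 batches (permutation, adjusted p = 0.0066). That unit splits each of the 4 NoSort libraries, so batches of the same library were counted as if independent. EE over the 9 libraries with at least 10 cells of both phases was 0.67 ± 0.12 and 0.65 ± 0.06, a difference of -0.02 ± 0.12 with 5 of 9 below 0. EE minus LL was -0.29 ± 0.11 in early-S and -0.08 ± 0.12 in late-S/G2, higher in late-S/G2 in 7 of 9 libraries (exact p = 0.016, adjusted p = 0.094). With a minimum of 5 cells the latter difference was 0.22 ± 0.18, above 0 in 11 of 14 libraries, and passed (permutation, adjusted p = 0.0077). By batch numbers it was 0.20 ± 0.21, above 0 in 9 of 13 batches, and did not pass (permutation, adjusted p = 0.059).

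**Figure D3:**
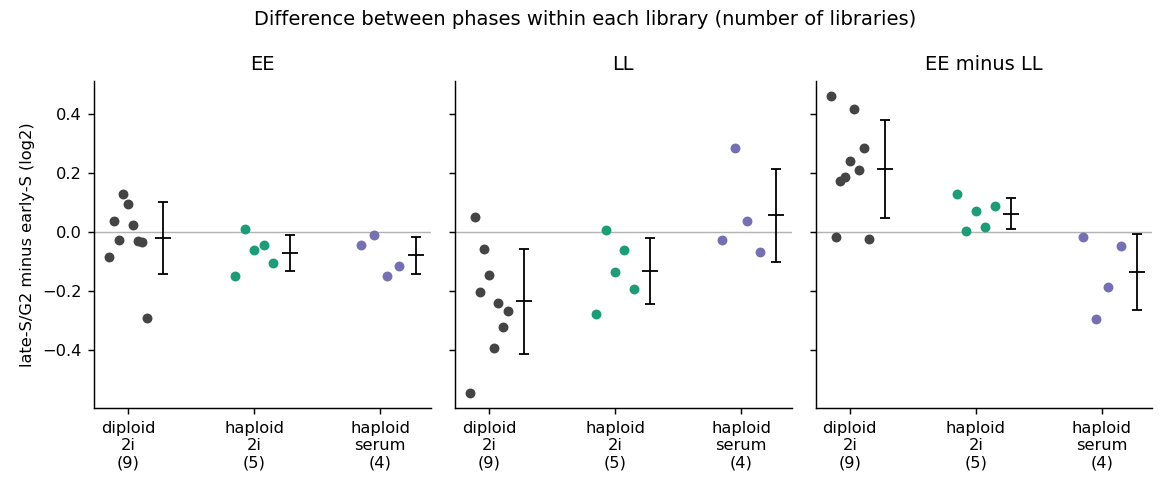
Difference between late-S/G2 and early-S within each library (log2, vertical axis; zero line in grey) in EE, LL and EE minus LL (panels) for 9 diploid 2i, 5 haploid 2i and 4 haploid serum libraries (points), with mean ± SD to the right of each set. EE minus LL lies above 0 in 7 of 9 diploid and 5 of 5 haploid 2i libraries, and below 0 in 4 of 4 haploid serum libraries.

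None of the 18 phase tests passed adjustment, 4 of them reaching an unadjusted p under 0.05. With 9 libraries the smallest exact sign-flip p is 0.0039, so no step with 9 or fewer libraries could pass on its own. From G1 to early-S the diploid differences were -0.06 ± 0.14 for EE, 0.02 ± 0.10 for LL and -0.08 ± 0.15 for EE minus LL (10 libraries, adjusted p from 0.23 to 0.71, permutation). The haploid ones were 0.01 ± 0.14, -0.15 ± 0.16 and 0.16 ± 0.24 (9 libraries), with LL lower in early-S in 7 of 9 (exact p = 0.035, adjusted p = 0.16). From early-S to late-S/G2 haploid EE differed by -0.07 ± 0.06, below 0 in 8 of 9 libraries (exact p = 0.012, adjusted p = 0.094), haploid LL by -0.05 ± 0.16 and EE minus LL by -0.03 ± 0.14. The direct step from G1 to late-S/G2 had 5 libraries per line, for which the smallest exact p is 0.0625. Over it diploid LL differed by -0.26 ± 0.15 and haploid LL by -0.13 ± 0.14, each below 0 in 5 of 5 libraries (exact p = 0.0625, adjusted p = 0.19 for both). Diploid EE and EE minus LL differed by -0.13 ± 0.11 and 0.13 ± 0.12 over that step, and haploid ones by -0.07 ± 0.18 and 0.05 ± 0.25. Phases also differed in depth, the library medians averaging 130088 contacts in diploid G1, 193754 in early-S and 236093 in late-S/G2, and 92980, 93578 and 106219 in haploid cells. With phases compared within quartiles of contacts, a setting added after seeing the data, the diploid LL difference from early-S to late-S/G2 was -0.17 ± 0.15 (7 of 8 libraries below 0, exact p = 0.023, adjusted p = 0.14). The haploid EE difference was then -0.08 ± 0.06, below 0 in 9 of 9 libraries (exact p = 0.0039, the smallest that 9 libraries can give, adjusted p = 0.070).

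The sort gates give phase by DNA content and Geminin, which are not Hi-C measures. Of the diploid libraries, 8 held cells of a single gate, and all cells of each were averaged whatever their Hi-C phase, a comparison chosen after seeing the data. LL was 0.98 and 0.98 in the 1CD_G1 libraries and 0.90 and 0.93 in the 1CD_eS libraries. It was 0.72 and 0.79 in the 1CD_mS libraries and 0.73 and 0.70 in the 1CD_lS_G2 libraries. The 4 libraries of the earlier gates thus averaged 0.95 ± 0.04 and the 4 of the later gates 0.73 ± 0.04, with no overlap and a difference of -0.21 (exact permutation of library labels, p = 0.029, the smallest that 4 against 4 can give, adjusted over 3 tests p = 0.043). EE minus LL was -0.29 ± 0.04 and -0.13 ± 0.06, higher in the later gates by 0.16 (exact permutation, adjusted p = 0.043). EE was 0.66 ± 0.05 and 0.61 ± 0.02, a difference of -0.05 (exact permutation, adjusted p = 0.086). Both calls were lost on leaving out diploid 19, 20, 21 or 22 (exact permutation, adjusted p up to 0.086). Over all fits without 1 library, LL differed by -0.23 to -0.20 and EE minus LL by 0.14 to 0.19. The earlier and later gates overlapped in none of these fits, so the losses follow from the number of libraries.

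**Figure D4:**
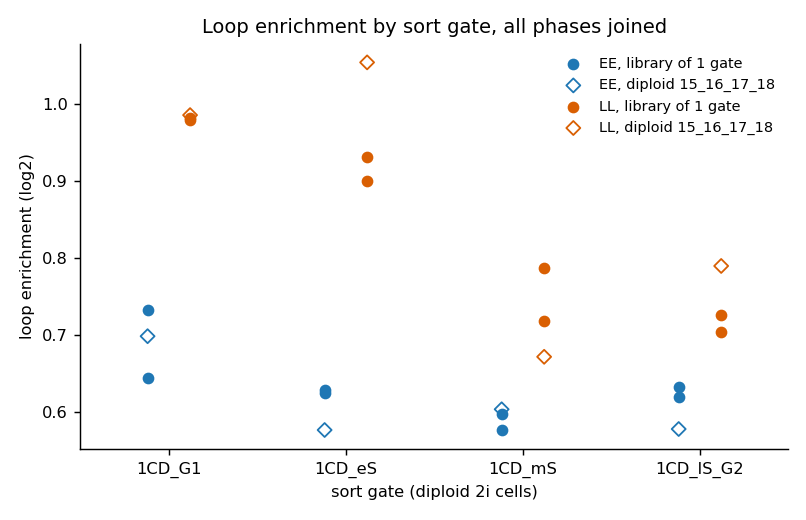
Loop enrichment (log2, vertical axis) by sort gate (horizontal axis) in diploid 2i cells of all phases, EE in blue and LL in orange, with filled circles for the 8 libraries of 1 gate and open diamonds for the 5 or 6 cells per gate of diploid 15_16_17_18. Filled orange points lie from 0.90 to 0.98 in the 2 earlier gates and from 0.70 to 0.79 in the 2 later gates.

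Gates and depth moved together: the libraries of the earlier gates had a mean of 186293 to 254145 contacts per cell and those of the later gates 282732 to 317256. With cells of at least 100000 contacts LL was 0.94 ± 0.04 and 0.73 ± 0.01, a difference of -0.21 that passed again (exact permutation, adjusted p = 0.029), and so did EE, at 0.65 ± 0.04 and 0.59 ± 0.01 (exact permutation, adjusted p = 0.029). A single library, diploid 15_16_17_18, holds all 4 gates, with 5 or 6 cells each. It joins 4 of the authors' batch numbers, and whether gates and batch numbers coincide was not examined. Its LL was 0.99 in 1CD_G1, 1.05 in 1CD_eS, 0.67 in 1CD_mS and 0.79 in 1CD_lS_G2, at 218583, 214517, 237688 and 245113 mean contacts, and its EE was 0.70, 0.58, 0.60 and 0.58. These 22 cells from 1 library have no replicate.

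Along the authors' order of cells, cut in 10 equal bins, the library means of diploid LL were above 0.9 up to bin 7 and near 0.7 from bin 8 on. LL was 0.93, 0.97, 1.01, 1.03, 0.95, 0.92 and 0.92 in bins 1 to 7, and 0.69, 0.73 and 0.68 in bins 8 to 10 (means over libraries with at least 3 cells in the bin). The fall lies where the order passes from 60.3% early-S cells in bin 7 to 100% late-S/G2 cells in bin 8, and the median contacts of these bins were 229404 and 205570. The libraries with enough cells differ between bins (16 in bin 7 and 12 in bin 8). With all cells of a bin pooled, LL went down more gradually, at 0.93, 0.82 and 0.71 in bins 6, 7 and 8. EE was 0.64 in bin 1, 0.76 in bin 2 and 0.63 in bin 7, and 0.63 to 0.65 in the last 3. G1 cells made up 85.5% of bin 1 and late-S/G2 cells 86% of bin 10, so cells of other groups entered these means. EE minus LL stood at -0.29 in bin 7 and -0.06 in bin 8, and at -0.23 and -0.08 with cells pooled. Haploid LL was 1.43, 1.45, 1.43, 1.39 and 1.26 in bins 1 to 5 and 1.22, 1.19, 1.26, 1.20 and 1.03 in bins 6 to 10, while EE was between 0.88 and 1.10. Haploid EE minus LL had no steady course: it was -0.47 in bin 1, -0.15 in bin 6, -0.19 in bin 7, -0.38 in bin 8, -0.21 in bin 9 and -0.04 in bin 10. Of the cells in haploid bin 10, 83.2% were late-S/G2. Bin means carry SDs over libraries of up to 0.26 in diploid and 0.45 in haploid LL, and no test was made along the bins.

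**Figure D5:**
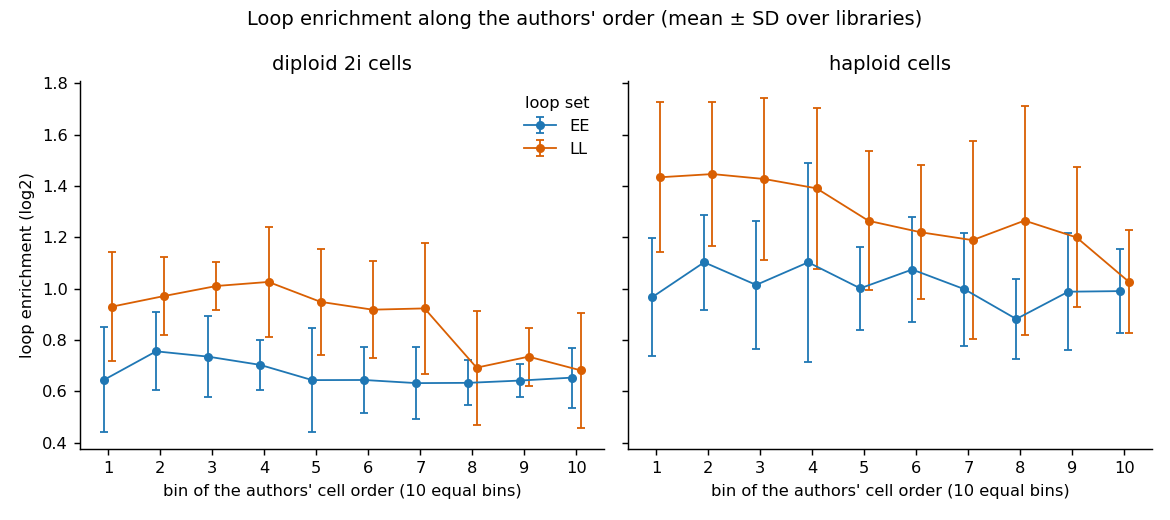
Loop enrichment (log2, vertical axis) in 10 equal bins of the authors' cell order (horizontal axis) for EE (blue) and LL (orange), as mean ± SD over libraries with at least 3 cells in the bin. Diploid LL is 0.92 in bin 7 and 0.69 in bin 8, and the EE and LL means nearly meet in bin 10 of both lines. In that bin 86% of diploid and 83.2% of haploid cells are late-S/G2.

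No difference along the order was called within a phase. Splitting each library's cells of a phase at the median order gave 18 tests, none of which passed and none with an unadjusted p under 0.05 (sign-flip over libraries, smallest adjusted p = 0.50). In diploid late-S/G2 cells LL was 0.77 in the earlier and 0.70 in the later cells, and in haploid ones 1.28 and 1.15.

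The replication score, a deposited per-cell value, is lowest at 1 in each table. Along the order its mean was 1.08 in diploid bin 1, highest at 1.33 in bin 7 and 1.27, 1.18 and 1.11 in bins 8, 9 and 10, so within late-S/G2 a higher score goes with an earlier place in the order. The score gave 1 call among 18 tests. In diploid early-S cells EE was lower in the cells with the higher score, 0.59 against 0.73, a difference of -0.14 ± 0.14 found in 13 of 16 libraries (permutation, adjusted p = 0.031). LL in the same cells was 0.91 against 0.97 (12 of 16 libraries, permutation p = 0.045, adjusted p = 0.23). With the split made separately among shallower and deeper cells the EE difference was -0.11 ± 0.13 (12 of 16, permutation, adjusted p = 0.047). It was no call with at least 10 cells on each side, at -0.12, or between the outer groups of cells, at -0.11 (permutation, adjusted p = 0.096 and 0.12). It lost its call on leaving out any of 10 of the 16 libraries, among them diploid 2_14, 12, 13, 20, 23, 25, 26, 28_29, 32_33 and 34_35, with differences from -0.16 to -0.13. In quintiles of the score over all diploid early-S cells, EE was 0.76, 0.69, 0.63, 0.62 and 0.62 and LL 0.97, 1.01, 0.99, 0.95 and 0.92, so most of the EE difference lay between the first 3 quintiles. Median contacts in the quintiles were 172594, 185951, 186325, 206495 and 193221.

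In haploid late-S/G2 cells LL was 1.32 in the cells with the higher score and 1.10 in the others, a difference of 0.23 ± 0.29 in 8 of 9 libraries (exact p = 0.012), without passing adjustment (p = 0.11). With the split made separately among shallower and deeper cells it was 1.35 against 1.07, higher in 9 of 9 libraries, and passed (exact, adjusted p = 0.047), as did EE minus LL, at -0.41 against -0.14 (8 of 9, exact, adjusted p = 0.047). By quintiles of the score, LL was 0.98, 1.18, 1.09, 1.35 and 1.38 and EE between 0.92 and 1.00. Median contacts in these quintiles were 85206, 74035, 78071, 68198 and 59405. Along the order the mean haploid score was 1.33, 1.27 and 1.14 in bins 8, 9 and 10. In diploid late-S/G2 cells LL was 0.72 in the cells with the lower and 0.73 in those with the higher score.

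With haploid 2i and serum libraries joined, the lines were called different in EE minus LL in both steps from phase to phase. LL was called in the step from G1 to early-S, while no contrast in EE was called (exact permutation, adjusted p from 0.33 to 0.57). Against haploid 2i libraries only, none of these calls held. The EE minus LL difference from early-S to late-S/G2 was 0.21 ± 0.17 in diploid and -0.03 ± 0.14 in haploid libraries, a contrast of -0.24 (exact permutation of library labels, 9 against 9, adjusted over 9 tests p = 0.032). With a minimum of 5 cells it was -0.13 and with one of 20 cells -0.24, neither of them a call (exact permutation, adjusted p = 0.60 and 0.059). Within quartiles of contacts, cut separately for each line, the contrast was -0.24 as well (exact permutation, adjusted p = 0.023). Such quartiles match depth between the phases of a line but not between the lines. From G1 to early-S the contrast was -0.16 for LL and 0.24 for EE minus LL (exact permutation, 9 against 10, adjusted p = 0.046 for both), and both calls were lost within quartiles of contacts, at -0.12 and 0.21 (adjusted p = 0.16 for both, exact permutation). Against haploid 2i libraries only they were -0.12 and 0.23 (exact permutation, adjusted p = 0.33 for both). Each call was also lost in 14 of the 19 fits that left out 1 library. The LL contrast from early-S to late-S/G2 was 0.19 (exact permutation, adjusted p = 0.069), and from G1 to late-S/G2 the contrasts were 0.06 for EE, 0.14 for LL and -0.07 for EE minus LL (exact permutation, 5 against 5, adjusted p from 0.30 to 0.59). The call on EE minus LL from early-S to late-S/G2 was lost on leaving out diploid 11, 28_29, 30_31 or 32_33 or haploid 17 or 18. Against haploid 2i libraries only that contrast was -0.15 (5 libraries, exact permutation, adjusted p = 0.33).

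Among haploid libraries this difference lay apart by medium. From early-S to late-S/G2, EE minus LL differed by 0.13, 0.004, 0.07, 0.02 and 0.09 in the 2i_all libraries haploid 1, 3, 6, 7 and 8, and by -0.02, -0.29, -0.19 and -0.05 in the Serum_G1/S libraries haploid 17, 18, 19 and 20. The sets did not overlap, and their means of 0.06 ± 0.05 and -0.14 ± 0.13 differed by -0.20 in a comparison chosen after seeing the data (exact permutation, adjusted over 6 tests p = 0.048). The call was lost within quartiles of contacts, where the difference was -0.06. It was also lost on leaving out any 1 of the 9 libraries, at differences from -0.24 to -0.15 (exact permutation, adjusted p from 0.11 to 0.17). With 1 library fewer no single test can pass adjustment over 6 tests, so these losses do not show dependence on 1 library. LL differed by -0.13 ± 0.11 in the 2i and 0.06 ± 0.16 in the serum libraries, and EE by -0.07 ± 0.06 and -0.08 ± 0.06. The serum libraries were deeper, with a mean of library medians in late-S/G2 of 164288 contacts against 59765.

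With cells of any depth, haploid levels lay above diploid ones for both loop sets. The differences were 0.22 (G1), 0.37 (early-S) and 0.30 (late-S/G2) for EE and 0.40, 0.33 and 0.48 for LL (permutation of library labels, exact where a group had fewer than 10 libraries, adjusted over 9 tests p = 0.00091 or smaller). EE minus LL differed by -0.18 in G1 (exact permutation, adjusted p = 0.015) and by -0.18 in late-S/G2 (exact permutation, adjusted p = 0.021), and differed by 0.04 in early-S (permutation, adjusted p = 0.39). The tables were made separately, and whether their enrichments share a scale is not stated. Diploid cells were also deeper. In the range of contacts that both tables share, 106460 to 158676, between 1 and 5 libraries a side were left and no difference was called. EE in G1 was then -0.16, from 1 haploid and 2 diploid libraries, and LL in G1 0.27. With a minimum of 5 cells in that range, the G1 differences were 0.09 for EE and 0.10 for LL and were not called (exact permutation, adjusted p = 0.60 and 0.65). In early-S they were 0.27 and 0.23 and passed (exact permutation, adjusted p = 0.018 and 0.048), as did EE in late-S/G2 at 0.31 (exact permutation, adjusted p = 0.027), but not LL at 0.35 (exact permutation, adjusted p = 0.082). Among cells with at least 100000 contacts the EE differences were 0.16, 0.25 and 0.20, and the LL differences 0.20, 0.10 and 0.31, of which EE in G1 and LL in early-S no longer passed (exact permutation, adjusted p = 0.095 and 0.14). In those cells the EE minus LL difference was -0.04 in G1, 0.15 in early-S and -0.10 in late-S/G2 (exact permutation, adjusted p = 0.81, 0.031 and 0.14). The haploid libraries left by that limit in G1 and early-S were all Serum_G1/S. Line, medium and feeder cells therefore cannot be told apart in these values.

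At matched phase, conditions could be compared in 7 pairs with at least 4 libraries a side, over 21 tests, and none passed (exact permutation, 3 with an unadjusted p under 0.05, smallest adjusted p = 0.22). The smallest p of that permutation is 0.029 with 4 libraries against 4 and 0.0079 with 4 against 5. No single test could therefore pass adjustment on its own, even without overlap, and these tests cannot decide whether conditions differ. LL in diploid early-S cells was 1.11 ± 0.04 in NoSort (4 libraries, from 1.08 to 1.18) and 0.95 ± 0.05 in 1CDU libraries (4, from 0.89 to 1.02), without overlap. It was 0.80 ± 0.04 in the 1CD_lS_G2 and 0.79 ± 0.17 in the 1CD_mS libraries (2 each), which the authors' groups also place in early-S. Depth differed as well, with mean library medians of 110258 contacts in NoSort, 133127 in 1CDU, 270343 in 1CD_lS_G2 and 288979 in 1CD_mS. LL in haploid early-S cells was 1.13 ± 0.06 in Serum_G1/S and 1.30 ± 0.05 in 2i_G1 libraries (4 each), at mean library medians of 169830 and 73742 contacts. EE in haploid late-S/G2 cells was 0.85 ± 0.08 in Serum_G1/S (4) and 1.01 ± 0.09 in 2i_all libraries (5). In the diploid line the libraries of a gate also hold other phases: 83 of the 262 1CD_mS cells were called early-S and 170 late-S/G2.

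Spearman's rho between EE and LL over cells, within a phase and library of at least 20 cells, had medians over libraries of 0.07, 0.08 and -0.11 in diploid G1, early-S and late-S/G2 (6, 14 and 8 libraries) and 0.19, 0.04 and 0.12 in haploid cells (8, 11 and 9 libraries). These are descriptions of cells that share a library and differ in depth. With contacts per cell, LL had medians of -0.17, -0.10 and -0.13 in diploid and -0.44, -0.34 and -0.28 in haploid cells, the haploid G1 value being below 0 in 8 of 8 libraries. With the insulation score, which measures how strongly contacts avoid domain borders, EE in diploid early-S cells had a median of 0.12 (12 of 14 libraries above 0) and LL 0.11 (9 of 14). In the other phases of both lines the EE medians ran from -0.04 to 0.07. The LL medians there ran from -0.01 in haploid G1 to 0.15 in haploid late-S/G2 (8 of 9 above 0). With compartment strength in cis and with the share of contacts in the near band, the medians were within -0.18 and 0.11 in all phases and both lines.

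Around mitosis few cells were available, and they are described without a test. The 28 diploid pre-M cells (6 libraries, median 316154 contacts) had a mean EE of 0.52 and LL of 0.83, and the 29 post-M cells (7 libraries, median 369796 contacts) 0.41 and 0.68, with cell SDs of 0.25 and 0.41 in pre-M and 0.54 and 0.57 in post-M. Of the pre-M cells 15 came from diploid 26, with a mean EE of 0.44, and the other 13 had a mean EE of 0.62. The 8 pre-M cells of diploid 25 had 0.65, beside 0.64 in its late-S/G2 cells. Without diploid 26, the source of 9 post-M cells, post-M EE was 0.33 and post-M LL 0.81. Pre-M LL without diploid 26 was 0.83. EE was below LL in 22 of 28 pre-M and 17 of 29 post-M cells. The 21 haploid pre-M cells (9 libraries, median 101145 contacts) had EE at 1.05 and LL at 0.82, with cell SDs of 0.53 and 0.66. No other phase of either line had mean EE above mean LL. Still, EE was below LL in 9 of these 21 cells. Their library means of EE minus LL ran from -0.58 in haploid 7 to 1.99 in haploid 20, with 1 cell each. Only 3 haploid cells were post-M, with a mean EE of 0.06 and LL of 0.08.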

How the data were processed

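Per the labels' protocols, nuclei of mouse ES cells were fixed and single cells processed by Hi-C, and Bowtie2 and mm9 are named in the submitters' processing notes. The authors deposited tables of cells by features, in which contacts per cell are a count, the near-band share a fraction, and the replication, insulation and compartment columns a score of undefined scale. The deposited loop enrichments are taken as log2 values from their column range, and no pseudocount is stated. Members and lists were chosen with earlier results of these data known. Both loop columns and their difference were to be given in every phase of both tables, without naming genes, and no marker list applied.

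Cells were averaged within GEO samples (libraries). Differences within libraries (between phases, or between cells above and below a median) were tested by sign-flip and group differences by label permutation, all two-sided. Enumeration was exact for groups of fewer than 10, and 100000 resamples were drawn for larger ones. P-values were Benjamini-Hochberg adjusted within each family of tests, at a threshold of 0.05. Alternatives were minimums of 5 and 20 cells, medians, weighting, limits on contacts, comparison of outer groups of cells, leave-one-out and a replicate block. Python 3.11.15, numpy 2.4.6, pandas 2.3.3 and scipy 1.17.1 were used, and the tests were tested on simulated data. Depth per cell is given in the text, and the number of libraries limits the precision.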

Additional observations from a re-analysis of the deposited data

Results flagged for a closer look

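Of 30 sets of 4 to 10 libraries examined, 1 held a library far from the others (chance marks about 1 in 20). In the EE difference from early-S to late-S/G2, diploid 34_35 stood at -0.29, below the other 8 diploid libraries.

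Differences between groups were marked for the phase differences of the lines, as the haploid value minus the diploid one. These were LL from G1 to early-S at -0.16, EE minus LL from G1 to early-S at 0.24, and EE minus LL from early-S to late-S/G2 at -0.24. Within the haploid line, EE minus LL from early-S to late-S/G2 differed by -0.20 between serum and 2i libraries.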

How the results depend on the processing

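The order of the loop sets kept its direction in every phase and line under all alternatives run. Its test no longer passed for diploid late-S/G2 cells with a minimum of 5 cells (-0.072), nor with contacts between the 25th and 75th percentile for diploid G1 (-0.21) and haploid late-S/G2 (-0.14). Among cells with at least 100000 contacts it no longer passed for diploid G1 (-0.22) and haploid G1 (-0.26), early-S (-0.14) and late-S/G2 (-0.21), where 4 or 5 libraries were left and the test could not reach the threshold. The number of libraries and the contacts per cell limit what these data resolve. Causes of the changes below were not tested. The settings of at least 100000 contacts, batch numbers as the unit, matching on contacts and the shared range with a minimum of 5 cells were chosen after seeing the data, as were the comparisons of sort gates and of haploid media. Matching on contacts used quartiles cut separately for each line, so it matched phases and not lines.

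For differences between phases, a minimum of 5 cells gave calls for diploid LL (-0.24) and EE minus LL (0.22) from early-S to late-S/G2 and turned haploid EE minus LL to 0.094. Batch numbers as the unit gave a call for the same LL difference (-0.25), counting batches of the same NoSort library as separate units. Small differences turned sign without a call. Diploid LL from G1 to early-S was -0.028 with a minimum of 20 cells and with batch numbers, -0.0023 among cells with at least 100000 contacts, -0.0078 within 1CDU and -0.067 within 1CD_G1, where EE minus LL was 0.023. Haploid EE from G1 to early-S was -0.0028 with a minimum of 20 cells and -0.032 within Serum_G1/S. Diploid EE from early-S to late-S/G2 was 0.034 with contacts between the percentiles, 0.044 among cells with at least 100000 contacts, 0.11 within 1CD_lS_G2 and 0.0037 within 1CD_mS. Haploid LL over that step was 0.087 among cells with at least 100000 contacts and 0.056 within Serum_G1/S, and haploid EE minus LL was 0.0028 with cells weighted by contacts and 0.062 within 2i_all. Over the step from G1 to late-S/G2, haploid EE was 0.033 with contacts between the percentiles, haploid EE minus LL -0.010 among cells with at least 100000 contacts and diploid EE minus LL -0.040 matched on contacts.

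The contrasts between the lines in phase differences lost calls in several settings. LL from G1 to early-S was -0.20 with a minimum of 5 cells, -0.14 with 20, -0.12 against haploid 2i libraries, -0.11 among cells with at least 100000 contacts and -0.12 matched on contacts. EE minus LL over that step was 0.21 with a minimum of 20 cells, 0.23 against haploid 2i libraries, 0.17 among cells with at least 100000 contacts and 0.21 matched on contacts. EE minus LL from early-S to late-S/G2 was -0.13 with a minimum of 5 cells, -0.24 with 20 and -0.15 against haploid 2i libraries. With medians the LL contrast of that step gained a call at 0.21. In the range of contacts that both tables share, too few libraries kept 10 cells of both phases for these contrasts, so that setting gave no value. Without being called, the contrasts from G1 to late-S/G2 turned with a minimum of 5 cells, to -0.0040 for LL and 0.052 for EE minus LL, and the latter to 0.094 matched on contacts.

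For levels of haploid minus diploid cells, that shared range, 106460 to 158676 contacts, left 1 to 5 libraries a side and no call. EE, LL and EE minus LL were -0.16, 0.27 and -0.43 in G1 and 0.23, 0.086 and 0.15 in late-S/G2, with EE in G1 and EE minus LL in late-S/G2 turned in sign, and EE and LL were 0.32 and 0.16 in early-S. With a minimum of 5 cells in the range, the calls were lost in G1 at 0.088, 0.10 and -0.016 and in late-S/G2 for LL at 0.35 and EE minus LL at -0.039. Among cells with at least 100000 contacts they were lost for EE in G1 (0.16), LL in early-S (0.10) and EE minus LL in G1 (-0.037) and late-S/G2 (-0.10), and EE minus LL in early-S gained one (0.15). EE minus LL lost its call in G1 with a minimum of 20 cells (-0.16) and in late-S/G2 against haploid 2i libraries (-0.13).

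With the title number as a replicate block, LL and EE minus LL contrasts from G1 to early-S were -0.085 and 0.14, and level differences were 0.29, 0.36 and -0.077 for EE, LL and EE minus LL in G1 and 0.34 and 0.28 for EE and LL in early-S, all without a call. At most 5 numbers are shared, for which the smallest exact p is 0.0625. The deviations of same-numbered libraries over 4 values correlated at 0.71, 0.04, 0.75, -0.33 and -0.77. With so few values each, these correlations cannot decide whether the libraries share more than a number.

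Of the splits by order, 1 was called with medians. Of those by replication score, 0 were called with at least 10 cells on each side or between the outer groups of cells, and 3 when split within depth. Of those by contacts, 12 were called between the outer groups. For sort gates, EE gained a call with contacts between the percentiles (-0.081) and among cells with at least 100000 contacts (-0.059), and EE minus LL lost its call with contacts between the percentiles (0.079). The haploid media gave 0 calls with minimums of 5 or 20 cells, with medians, with contacts between the percentiles, where EE minus LL turned to 0.061, and matched on contacts.

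Leaving out 1 library at a time, diploid EE minus LL in late-S/G2 ran from -0.11 to -0.072. Diploid EE from early-S to late-S/G2 ran from -0.039 to 0.013, above 0 without diploid 34_35, haploid EE from G1 to early-S from -0.018 to 0.036, below 0 without haploid 7 or 12, and haploid EE minus LL from early-S to late-S/G2 from -0.045 to 0.0079, above 0 without haploid 18. The contrasts between the lines ran from -0.19 to -0.14 for LL and from 0.19 to 0.28 for EE minus LL from G1 to early-S. The former kept its call only without diploid 19 or haploid 7, 11, 19 or 20, the latter only without diploid 19 or 34_35 or haploid 11, 19 or 20. From early-S to late-S/G2 they ran from -0.087 to -0.035 for EE, from 0.15 to 0.22 for LL and from -0.27 to -0.21 for EE minus LL. Haploid EE minus LL from G1 to late-S/G2 ran from -0.040, without haploid 17, to 0.13, and its contrast between the lines from -0.17 to 0.0053, above 0 without haploid 19. Calls by replication score ran from 0 to 2, by contacts from 0 to 6 and by haploid medium from 0 to 1, and the gate differences from -0.23 to -0.20 for LL and from 0.14 to 0.19 for EE minus LL.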
